A study of Rattus norvegicus with 18 samples.

Results

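The genes described here encode 10 proteins of the extracellular metalloproteinase system. They are 6 matrix metalloproteinases (Mmp2, Mmp3, Mmp9, Mmp12, Mmp13 and Mmp14), 2 proteinases of the ADAMTS family (Adamts1 and Adamts4) and 2 tissue inhibitors of metalloproteinases (Timp1 and Timp3). They were chosen by symbol from the deposited tables of counts, which list 17930 symbols in all. The 10 symbols are listed for both cell types and passed the filter on low counts in each fit reported. Primary astrocytes and microglia of wild-type Sprague-Dawley rats, cultured from the cortex of pups at postnatal day 2, were left untreated (control) or exposed for 24 h to fibrils of the amyloid β-protein Aβ42 or Aβ40. Aβ42 and Aβ40 are the longer and the shorter main form of the peptide that deposits in the brain in Alzheimer's disease. Each of the 6 groups was sequenced in 3 libraries, which gave 18 libraries. Both cell types came from mixed glial flasks, from which microglia were shaken off the adherent astrocyte layer, so each culture can hold some cells of the other type, and the cells of newborn animals, kept in serum-free medium during treatment, are a limited model of adult glia. The labels do not say that the 3 libraries of a group came from separate cultures, so the tests measure the spread between these libraries.

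Matrix metalloproteinases are zinc-dependent enzymes that cut proteins of the extracellular matrix and of the cell surface. Most are secreted as inactive proenzymes and are activated when another proteinase removes the propeptide. Mmp2 and Mmp9 are the gelatinases, Mmp3 is a stromelysin that can activate other proenzymes, Mmp12 is the macrophage elastase, Mmp13 is a collagenase, and Mmp14 is anchored in the membrane and activates pro-Mmp2. Adamts1 and Adamts4 are aggrecanases, which cut the chondroitin sulphate proteoglycans that fill much of the matrix of the brain. The tissue inhibitors block the active site: Timp1 also binds the proenzyme of Mmp9, and Timp3 stays bound to the matrix and also inhibits several ADAMTS enzymes. In the brain these enzymes take part in the remodelling of matrix, in the opening of the blood-brain barrier and in the cleavage of Aβ.

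Mmp3, Mmp12 and Mmp13 lie in a cluster of metalloproteinase genes on rat chromosome 8, together with Mmp10, a second stromelysin. The sequences upstream of these 4 genes are shown first, because they share a short motif with each other that most promoters lack. All 4 genes rose against control with both fibrils in both cell types, but their differences between the fibrils were not alike. A link between the motif and these changes was not tested. Each line gives the 120 bases before the start site in the RefSeq annotation of assembly GRCr8, 5′ to 3′ on the strand of the gene. The capitals mark the AP-1 motif TGAGTCA, written TGACTCA where it lies on the other strand, and the TATA motif TATAAA.
Mmp13, chr8:12782709-12782828, plus strand: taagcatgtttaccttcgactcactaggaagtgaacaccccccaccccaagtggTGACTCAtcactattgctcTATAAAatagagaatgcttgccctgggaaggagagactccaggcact
Mmp12, chr8:12866532-12866651, plus strand: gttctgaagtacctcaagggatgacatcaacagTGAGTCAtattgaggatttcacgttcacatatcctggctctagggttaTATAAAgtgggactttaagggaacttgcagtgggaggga
Mmp3, chr8:12925161-12925280, plus strand: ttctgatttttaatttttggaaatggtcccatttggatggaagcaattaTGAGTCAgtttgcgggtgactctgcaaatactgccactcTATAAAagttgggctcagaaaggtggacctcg
Mmp10, chr8:12974587-12974706, plus strand: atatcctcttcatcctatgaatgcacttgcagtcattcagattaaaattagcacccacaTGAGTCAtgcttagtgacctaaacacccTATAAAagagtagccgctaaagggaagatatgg

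The AP-1 motif began 66 bases before the start site in Mmp13, 87 in Mmp12, 71 in Mmp3 and 61 in Mmp10. Of 33469 rat promoters, 4.05% held TGAGTCA on either strand within 250 bases before the start site, and 8.06% held TATAAA on the sense strand. Both motifs occurred within the last 120 bases in 0.123% of the promoters. RefSeq promoter entries matched 7 of the 10 members. The other matched members were Adamts1, Adamts4, Timp1 and Timp3, and none of them held TGAGTCA in the 250 bases. Adamts1 held TATAAA. Timp1 held the related letters TGAGTAA, found in 2.38% of promoters, and the PEA3 motif AGGAAG, found in 29.5%, both in capitals in the line below. These letters were not particular to Timp1, since Mmp3 also held TGAGTAA, and Mmp3, Mmp13 and Adamts4 held AGGAAG. Of these, only the AGGAAG of Mmp13, which began 95 bases before the start site, lies in a printed line, where it is not capitalised. The 10-base NF-κB consensus, found in 6.33% of promoters, was in none of these windows. Mmp2, Mmp9 and Mmp14 had no entry. A match is a description of the letters and does not show that a factor bound there, and the absence of a match concerns this window alone.
Timp1, chrX:3771123-3771242, minus strand: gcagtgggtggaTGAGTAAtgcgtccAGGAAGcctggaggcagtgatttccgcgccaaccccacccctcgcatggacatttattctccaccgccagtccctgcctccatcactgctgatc

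The counts on genes ranged from 3674043 to 19013919 in the astrocyte libraries and from 2271834 to 22274367 in the microglia libraries, so 3 reads correspond to 0.160 to 0.835 and to 0.130 to 1.38 CPM, the read count of a gene scaled to a common library total. Microglia treated with Aβ42 fibrils, replicate 1, stood apart from its group. Across genes its closest library was Aβ40 replicate 1 (r = 0.986), while its mean r with the other Aβ42 libraries was 0.964, and the other 17 libraries were each closest to a library of their own group. Values with and without it are therefore given wherever it changed a call. Astrocyte control replicate 2 had the lowest mean r with its own group (0.949). It also had the largest share of reads on no gene or on several genes (34.2%). Of the astrocyte controls it was highest in Timp3 and lowest in Adamts4 and Mmp14. The 8 astrocyte markers summed to 8578 to 10507 CPM in control astrocytes and to 239 to 268 CPM in control microglia. The 8 microglial markers summed to 279 to 346 CPM in control astrocytes and to 3993 to 4839 CPM in control microglia, so the labels and the markers went together and reads of the other type's markers were present in each. With the fibrils the astrocyte sum in astrocytes was 5586 to 6517 CPM and the microglial sum in microglia 1078 to 1274 CPM. Single markers went both ways by the edgeR test described below. In astrocytes, 2 of their 8 markers rose and 5 fell with Aβ42 fibrils, and 3 rose and 5 fell with Aβ40 fibrils. In microglia, 1 of 8 rose with each fibril, and 6 fell with Aβ42 and 7 with Aβ40 fibrils. Csf1r fell in microglia from a mean of 2494 CPM to 170 (Aβ42) and 167 CPM (Aβ40). Itgam rose from 372 to 693 and 766 CPM. In treated astrocytes the microglial sum was 109 to 125 CPM, and Cx3cr1 was at or under 3 reads in each treated library. Oligodendrocyte lineage markers summed to 1506 to 2367 CPM in control and 1152 to 1279 CPM in treated astrocytes. In microglia their sum was 1944 to 2147 CPM in control and 2148 to 2844 CPM in treated cells. In treated microglia it exceeded the microglial sum. Fibroblast and mural markers summed to 316 to 458 CPM in astrocytes and 169 to 227 CPM in microglia. Endothelial markers summed to 6.84 to 11.5 CPM in astrocytes, 186 to 190 CPM in control and 42.1 to 114 CPM in treated microglia. The part of such cells in the members was not tested. In bulk RNA, fewer cells of a type and less RNA per cell cannot be told apart.

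Levels are given below in the order of replicates 1, 2 and 3, as CPM scaled with TMM factors within a cell type. Changes are log2 fold changes from the quasi-likelihood test of edgeR with their standard error (SE), and a change was called at an adjusted p-value below 0.05, adjusted over all genes tested. Both fibril comparisons of a cell type use the same 3 control libraries. CPM is not corrected for gene length, so levels are compared between groups and not between genes.

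In astrocytes, 8 members rose and 1 fell with Aβ42 fibrils, and the same numbers applied with Aβ40 fibrils. Of all 11690 genes tested in astrocytes, 16.5% rose and 20.4% fell with Aβ42 fibrils and 14.9% rose and 18.4% fell with Aβ40 fibrils. In microglia, 8 members rose and 1 fell with Aβ42 fibrils, against 27.1% and 26.6% of 10837 genes, and 7 rose and 1 fell with Aβ40 fibrils, against 19.6% and 21.4%. Every treated library lay above every control library for 9 members with Aβ42 and 8 with Aβ40 fibrils in astrocytes, against 22.7% and 21.9% of all genes. In microglia this held for 7 members with each fibril, against 25.8% and 29.0%. A rise of 5-fold or more was called for 4 members with each fibril in astrocytes, where 3.03% (Aβ42) and 2.82% (Aβ40) of all genes did so. In microglia 6 members did so with each fibril, against 3.69% and 3.36%. The median log2 fold change of the 10 members was 1.77 with Aβ42 and 1.25 with Aβ40 in astrocytes, and 3.86 and 3.92 in microglia, where the medians over all genes lay between -0.00473 and 0.00964. Mmp3, Mmp9, Mmp12 and Mmp13 in astrocytes and Mmp3 and Mmp13 in microglia passed the filter on low counts only because of the treated libraries, so they could hardly have been tested without being higher, and the counts above are descriptive.

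**Figure D1:**
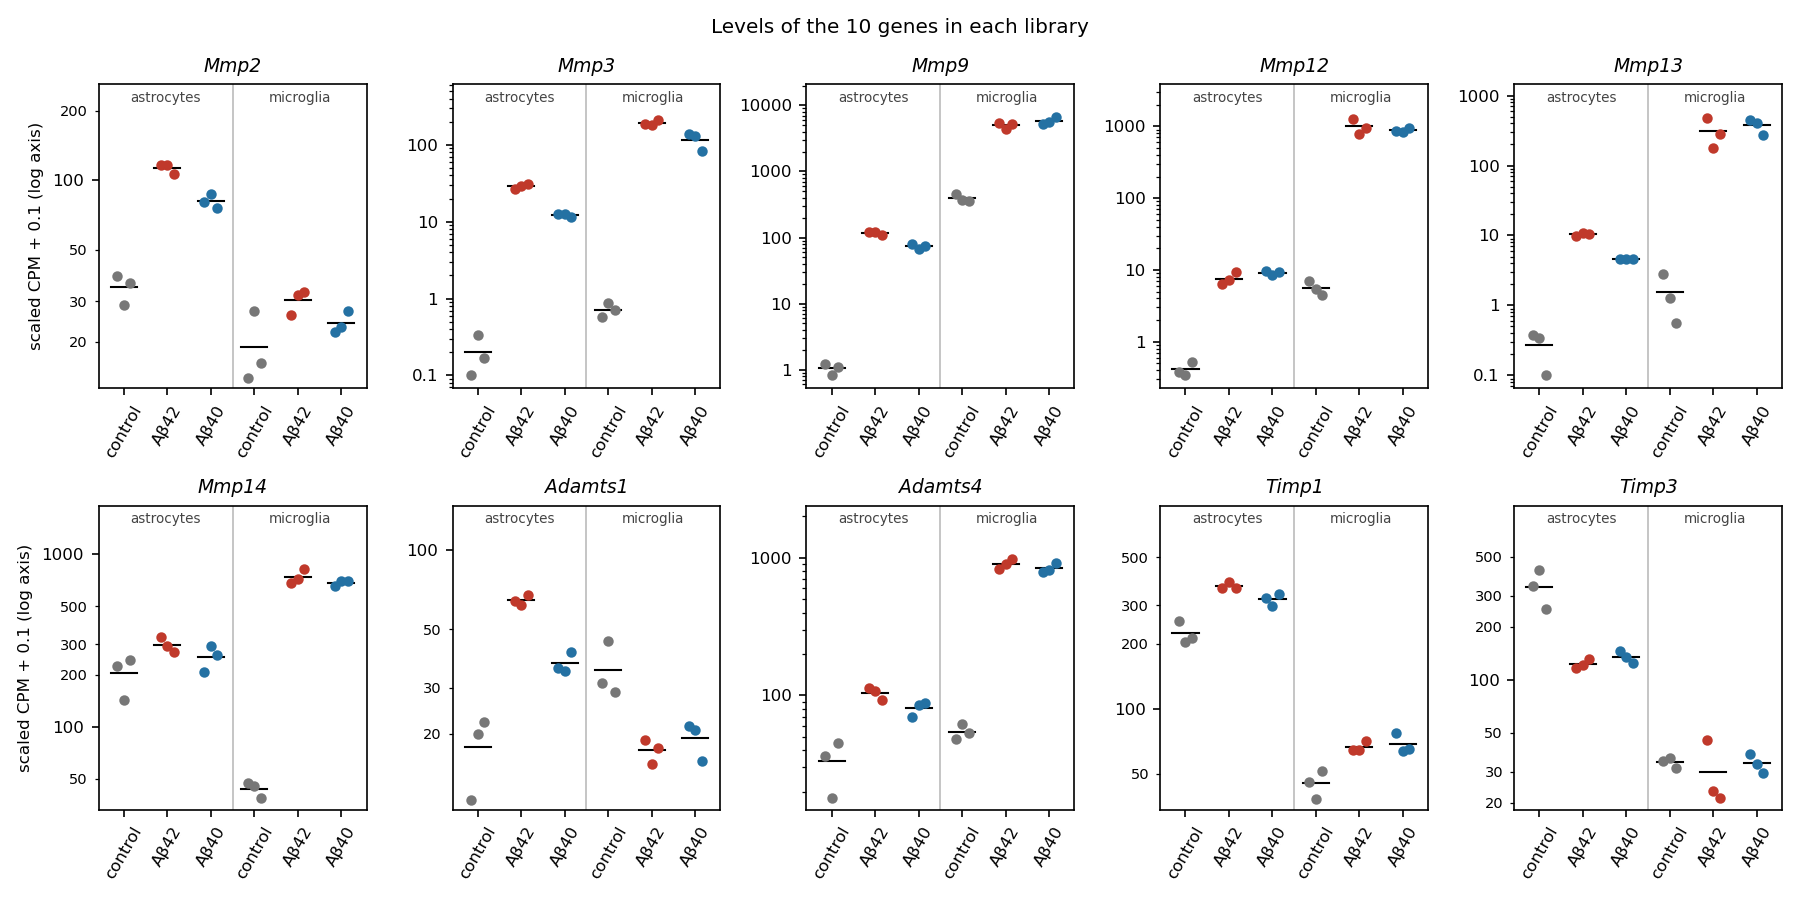
Scaled CPM + 0.1 of each member in each library, on log axes that differ between panels; points are libraries, horizontal lines are means of 3 libraries, and the scaling was done separately for astrocytes (left of the grey line) and microglia (right). Mmp3, Mmp9, Mmp12 and Mmp13 are far higher with either fibril than in control cells of the same type, Mmp14 and Adamts4 show this in microglia, and Timp1 and Timp3 are higher in every astrocyte library than in any microglia library.

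Mmp9, the inducible gelatinase, was at 1.11, 0.718 and 0.985 CPM in control astrocytes, 119, 121 and 109 CPM with Aβ42 fibrils and 79.5, 66.4 and 73.8 CPM with Aβ40 fibrils. The control values rest on 4, 3 and 14 reads, and no library of a treated group came near them. In microglia Mmp9 was already abundant in control cells, at 456, 366 and 362 CPM, and reached 5355, 4383 and 5268 CPM with Aβ42 fibrils and 5282, 5645 and 6614 CPM with Aβ40 fibrils. Treated and control libraries did not overlap in either cell type, and the treated groups overlapped with each other in microglia but not in astrocytes. The log2 fold change in astrocytes was 6.92 (SE 0.23, adjusted p = 2.61e-09) with Aβ42 fibrils and 6.25 (SE 0.23, adjusted p = 5.53e-09) with Aβ40 fibrils. In microglia it was 3.66 (SE 0.13, adjusted p = 2.03e-09) and 3.89 (SE 0.13, adjusted p = 1.81e-09), which is a 12.7-fold and a 14.8-fold rise. On a scale common to all 18 libraries, the level of Mmp9 in astrocytes was 0.200% of that in microglia in control cells, 1.97% with Aβ42 fibrils and 1.07% with Aβ40 fibrils. The same percentage for the microglial markers Aif1, Itgam, Csf1r and C1qa ranged from 3.66% to 6.98% in control cells, from 0.786% to 2.46% with Aβ42 fibrils and from 0.606% to 1.51% with Aβ40 fibrils, and Mmp9 lay within these ranges in treated cells. Cx3cr1, P2ry12 and Tmem119, also markers of that list, gave higher percentages, 6.39% to 35.6% with Aβ42 fibrils and 14.3% to 34.3% with Aβ40 fibrils. The part of microglial RNA in the level of Mmp9 in treated astrocytes was not tested. Mmp9 is also a gene of neutrophils, and the neutrophil genes Mpo, Elane and Ltf were at or under 3 reads in every treated microglia library, and the sum of the 7 neutrophil markers was 43.7 to 53.4 CPM in control microglia and 5.998 to 16.2 CPM in treated microglia. That sum followed Csf3r, the receptor of Csf3, whose mean was 48.8 CPM in control cells, 1.25 CPM with Aβ42 and 3.14 CPM with Aβ40 fibrils. Of the 3 markers of this list that were tested, Csf3r fell and the calgranulin genes S100a8 (mean 0.0644 CPM in control cells, 4.78 with Aβ42 and 3.16 with Aβ40 fibrils) and S100a9 (0.0393, 4.36 and 6.62 CPM) rose, with each fibril. S100a8 and S100a9 passed the filter on low counts only because of the treated libraries. The part of neutrophil RNA in Mmp9 was not tested.

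Mmp2, the constitutive gelatinase, was at 38.4, 28.7 and 35.9 CPM in control astrocytes, 116, 117 and 106 CPM with Aβ42 fibrils and 80.5, 87.0 and 75.8 CPM with Aβ40 fibrils. The 3 groups did not overlap, with Aβ42 highest. Mmp2 rose 3.29-fold with Aβ42 fibrils (log2 1.72, SE 0.14, edgeR adjusted p = 3.54e-06) and 2.36-fold with Aβ40 fibrils (log2 1.24, SE 0.14, adjusted p = 4.44e-05). In microglia it was at 13.9, 27.0 and 16.02 CPM in control cells, 26.0, 31.9 and 32.7 CPM with Aβ42 fibrils and 22.0, 23.04 and 27.1 CPM with Aβ40 fibrils. Control replicate 2 lay inside both treated groups. The microglial change with Aβ42 fibrils was 0.73 on the log2 scale (SE 0.21, adjusted p = 0.0122). It was 0.54 (adjusted p = 0.0621) without control replicate 1 and 0.64 (adjusted p = 0.0547) without control replicate 3, so the call rests on those libraries. With Aβ40 fibrils Mmp2 in microglia had a log2 difference of 0.35 (95% interval -0.15 to 0.85, adjusted p = 0.255), which became 0.69 (adjusted p = 0.00950) without control replicate 2.

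Mmp3, the stromelysin, was at 0, 1 and 1 reads in the control astrocyte libraries. With Aβ42 fibrils it had 381, 286 and 260 reads, or 26.2, 28.9 and 31.2 CPM, and with Aβ40 fibrils 120, 232 and 170 reads, or 12.5, 12.4 and 11.3 CPM. The 3 groups were fully separate. In microglia Mmp3 had 4 reads in each control library (0.471, 0.773 and 0.610 CPM), against 184, 182 and 208 CPM with Aβ42 fibrils and 139, 129 and 81.8 CPM with Aβ40 fibrils. With so few control reads, the fitted log2 fold changes of 8.13 and 6.87 in astrocytes (Aβ42 and Aβ40, edgeR adjusted p = 2.30e-08 and 1.45e-07) depend on the prior count. Summed reads were therefore also divided by the library totals of their group, scaled with TMM factors. The ratio of treated to control was 311 with Aβ42 fibrils (95% exact interval 85.8 to 2571) and 132 (36.4 to 1095) with Aβ40 fibrils. These intervals cover counting error alone. In microglia the corresponding ratios for Mmp3 were 324 (186 to 628) and 208 (119 to 404), and the fitted log2 fold changes were 8.29 (SE 0.46, adjusted p = 7.46e-10) and 7.60 (SE 0.47, adjusted p = 1.75e-09).

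Mmp12, the macrophage elastase, rose from a low level in both cell types. It was at 6.83, 5.41 and 4.42 CPM in control microglia, 1268, 786 and 943 CPM with Aβ42 fibrils and 864, 821 and 962 CPM with Aβ40 fibrils. The treated groups overlapped with each other and were far from control, with a 177-fold rise with Aβ42 fibrils (log2 7.46, SE 0.22, adjusted p = 5.54e-10) and a 156-fold rise with Aβ40 fibrils (log2 7.29, SE 0.22, adjusted p = 6.79e-10). The highest of the Aβ42 libraries was replicate 1, and without it the log2 fold change of Mmp12 was 7.25. In astrocytes Mmp12 had 1, 1 and 6 reads in control libraries and was at 6.18, 7.08 and 9.13 CPM with Aβ42 fibrils and 9.46, 8.40 and 9.36 CPM with Aβ40 fibrils. The read ratio was 19.8 (95% exact counting interval 9.88 to 46.4) with Aβ42 fibrils and 24.6 (12.4 to 57.5) with Aβ40 fibrils, with edgeR adjusted p = 1.78e-06 and 1.05e-06. The level of Mmp12 in treated astrocytes was 0.635% (Aβ42) and 0.876% (Aβ40) of that in treated microglia, below (Aβ42) and within (Aβ40) the range of Aif1, Itgam, Csf1r and C1qa, and the part of microglial RNA in it was not tested.

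Mmp13, a collagenase, was at 2.71, 1.16 and 0.458 CPM in control microglia, 472, 176 and 283 CPM with Aβ42 fibrils and 443, 405 and 277 CPM with Aβ40 fibrils. The libraries of each group differed by over 1.5 times, control most of all, and treated and control groups stayed far apart. The log2 fold change was 7.61 (SE 0.61, adjusted p = 1.11e-07) with Aβ42 fibrils, 7.17 without Aβ42 replicate 1, and 7.90 (SE 0.61, adjusted p = 1.06e-07) with Aβ40 fibrils. In astrocytes Mmp13 had 1, 1 and 0 reads in control libraries, 9.61, 10.7 and 10.4 CPM with Aβ42 fibrils and 4.47, 4.55 and 4.52 CPM with Aβ40 fibrils. The groups were separate, and the replicates of each treated group lay close together. The read ratio was 112 (95% exact counting interval 30.7 to 926) with Aβ42 fibrils and 49.7 (13.6 to 413) with Aβ40 fibrils, and the edgeR adjusted p-values were 9.60e-07 and 9.59e-06. The level of Mmp13 in treated astrocytes was 2.82% (Aβ42) and 1.02% (Aβ40) of that in treated microglia, above (Aβ42) and within (Aβ40) the range of the same 4 markers, and the part of microglial RNA in it was not tested. The same percentages were 12.7% and 8.77% for Mmp3, 9.78% and 8.16% for Adamts4 and 34.1% and 31.5% for Mmp14. These lay above that range, as did Cx3cr1, P2ry12 and Tmem119, and the part of microglial RNA was not tested there either.

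The neighbours of Mmp3, Mmp12 and Mmp13 were examined next, since the cluster holds 10 genes in the current gene table. Mmp10 followed Mmp3, from 1 read in each control astrocyte library to 2.53 to 2.88 CPM with Aβ42 fibrils and 0.727 to 1.02 CPM with Aβ40 fibrils, and in microglia from 1 to 3 reads to 31.6 to 49.4 and 19.3 to 33.5 CPM. Mmp3 and Mmp10 are similar in sequence, and reads that match both could have been split or lost in counting, so the level of Mmp10 is uncertain. Mmp1, Mmp8, Mmp20, Mmp27 and Mmp7, which also belong to the cluster, had at most 7 reads in any library. The rise was therefore seen in 4 of the 9 cluster genes that the count tables list, and Mmp1, which lies between Mmp3 and Mmp10, had at most 5 reads. Mmp8 and Mmp27 were at or under 1 read throughout, and a change in them was not detectable at this depth.

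**Figure D2:**
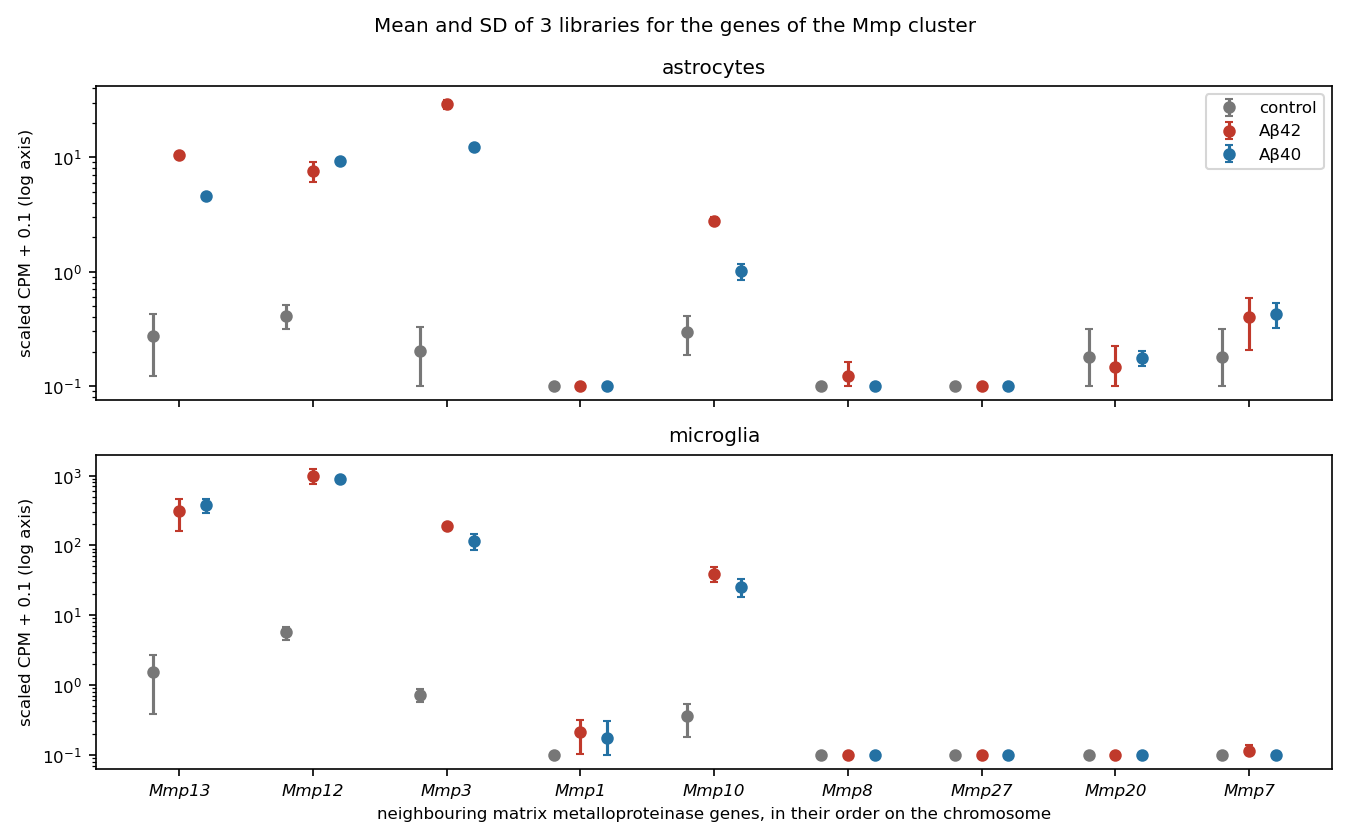
Mean scaled CPM + 0.1 (log axis) of 9 neighbouring metalloproteinase genes in astrocytes (top) and microglia (bottom), in chromosome order; points are means of 3 libraries and bars are the SD, cut at 0.1 where they would reach 0. Mmp13, Mmp12, Mmp3 and Mmp10 are raised with both fibrils in both cell types, while the remaining genes stay near 0.

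Mmp14, the membrane-anchored activator of Mmp2, changed in microglia. It was at 47.2, 45.2 and 38.3 CPM in control microglia, 679.7, 718 and 819 CPM with Aβ42 fibrils and 658, 696 and 698 CPM with Aβ40 fibrils. The replicates were tight in each group and the treated groups overlapped with each other. Mmp14 in microglia rose 17.0-fold with Aβ42 fibrils (log2 4.08, SE 0.11, edgeR adjusted p = 5.26e-10) and 15.7-fold with Aβ40 fibrils (log2 3.97, SE 0.11, adjusted p = 6.66e-10). In astrocytes it was abundant without treatment, at 225, 142 and 245 CPM, and was at 332, 294 and 269.6 CPM with Aβ42 fibrils and 207, 294 and 259 CPM with Aβ40 fibrils. The Aβ42 libraries lay above the control libraries and the Aβ40 libraries overlapped with them. The log2 difference in astrocytes was 0.55 with Aβ42 fibrils (95% interval 0.10 to 0.99, adjusted p = 0.0551) and 0.31 with Aβ40 fibrils (-0.13 to 0.76, adjusted p = 0.272), so neither was called. The first of these passed with DESeq2 (adjusted p = 0.0316), with DESeq2 size factors in edgeR (0.0483), with no filter on low counts (0.0363) and without control replicate 3 (log2 0.70, adjusted p = 0.0285).

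Adamts4, an aggrecanase, gave a similar picture in microglia. Its levels there were 47.9, 62.2 and 53.1 CPM in control cells, 826, 907 and 975 CPM with Aβ42 fibrils and 793, 814 and 913 CPM with Aβ40 fibrils. This is a 16.6-fold rise with Aβ42 fibrils (log2 4.06, SE 0.12, edgeR adjusted p = 7.00e-10) and a 15.5-fold rise with Aβ40 fibrils (log2 3.95, SE 0.12, adjusted p = 9.41e-10). In astrocytes Adamts4 was at 36.5, 17.95 and 44.8 CPM in control cells, with replicate 2 lowest, at 114, 108 and 91.9 CPM with Aβ42 fibrils and at 69.4, 84.6 and 87.7 CPM with Aβ40 fibrils. No treated library overlapped with control. The rise in astrocytes was 3.11-fold (log2 1.64, SE 0.26, adjusted p = 5.84e-04) and 2.40-fold (log2 1.26, SE 0.26, adjusted p = 0.00346).

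Adamts1, the other aggrecanase of the set, went up in astrocytes and down in microglia. In astrocytes it was at 11.1, 19.9 and 22.1 CPM in control cells, 64.1, 62.0 and 67.4 CPM with Aβ42 fibrils and 35.4, 34.6 and 41.0 CPM with Aβ40 fibrils. The 3 groups were separate. Adamts1 in astrocytes rose 3.54-fold with Aβ42 fibrils (log2 1.83, SE 0.21, edgeR adjusted p = 4.84e-05) and 2.04-fold with Aβ40 fibrils (log2 1.03, SE 0.21, adjusted p = 0.00281). In microglia it was at 31.1, 45.2 and 28.8 CPM in control cells, 18.8, 15.3 and 17.6 CPM with Aβ42 fibrils and 21.2, 20.6 and 15.6 CPM with Aβ40 fibrils. Every treated microglia library lay below every control library. The log2 fold change of Adamts1 in microglia was -1.04 (SE 0.18, adjusted p = 4.74e-04) with Aβ42 fibrils and -0.83 (SE 0.20, adjusted p = 0.00453) with Aβ40 fibrils, and its sign did not change in any alternative fit.

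Timp1, an inhibitor that is induced in many inflamed tissues, changed by less than 2-fold. In astrocytes it was at 255, 204 and 212 CPM in control cells, 359, 384 and 361 CPM with Aβ42 fibrils and 323, 297 and 339 CPM with Aβ40 fibrils. In microglia it was at 45.6, 38.2 and 51.6 CPM in control cells, 64.4, 64.4 and 71.0 CPM with Aβ42 fibrils and 77.2, 64.0 and 65.3 CPM with Aβ40 fibrils. Treated libraries lay above control libraries throughout. The rise of Timp1 in astrocytes was 1.65-fold (log2 0.72, SE 0.12, edgeR adjusted p = 7.17e-04) with Aβ42 fibrils and 1.43-fold (log2 0.52, SE 0.12, adjusted p = 0.00647) with Aβ40 fibrils. In microglia it was 1.48-fold (log2 0.56, SE 0.13, adjusted p = 0.00312) and 1.52-fold (log2 0.61, SE 0.13, adjusted p = 0.00292). Timp1 lies within the span of Syn1, and whether reads were counted by strand is not given in the sources used here. Syn1 in astrocytes was at 69.4 to 100.2 CPM in control cells and 25.5 to 39.1 CPM with the fibrils, the opposite direction to Timp1. In microglia Syn1 was at 19.5 to 27.0 CPM in control cells, 24.6 to 27.2 CPM with Aβ42 and 25.1 to 33.1 CPM with Aβ40 fibrils, and its part in the level of Timp1 was not tested.

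Timp3, the matrix-bound inhibitor, fell in astrocytes. It was at 341, 419.6 and 254 CPM in control astrocytes, 117, 121 and 132 CPM with Aβ42 fibrils and 146, 134 and 125 CPM with Aβ40 fibrils. The control libraries were widely spread and all lay above the treated ones. The log2 fold change was -1.45 (SE 0.17, edgeR adjusted p = 6.13e-05) with Aβ42 fibrils and -1.32 (SE 0.17, adjusted p = 1.33e-04) with Aβ40 fibrils, a 2.74-fold and a 2.498-fold fall. In microglia Timp3 was at 34.5, 35.9 and 31.3 CPM in control cells, 45.6, 23.2 and 21.1 CPM with Aβ42 fibrils and 37.9, 33.3 and 29.4 CPM with Aβ40 fibrils. Aβ42 replicate 1 was the highest of the 9 libraries and the other Aβ42 libraries were the lowest. The log2 difference in microglia was -0.30 with Aβ42 fibrils (95% interval -0.81 to 0.20, adjusted p = 0.289) and -5.78e-04 with Aβ40 fibrils (-0.53 to 0.53, adjusted p = 0.999). Without Aβ42 replicate 1 the former was -0.62 (adjusted p = 1.26e-04), so whether Timp3 fell with Aβ42 fibrils in microglia depends on that library. Timp3 lies within the span of Syn3, which was at or under 2.70 CPM in every astrocyte library. In microglia Syn3 was at 6.33 to 13.2 CPM, and of the Aβ42 libraries it was highest in replicate 1 (11.2 CPM, against 7.36 and 6.33), as Timp3 was. Its part in the level of Timp3 was not tested.

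**Figure D3:**
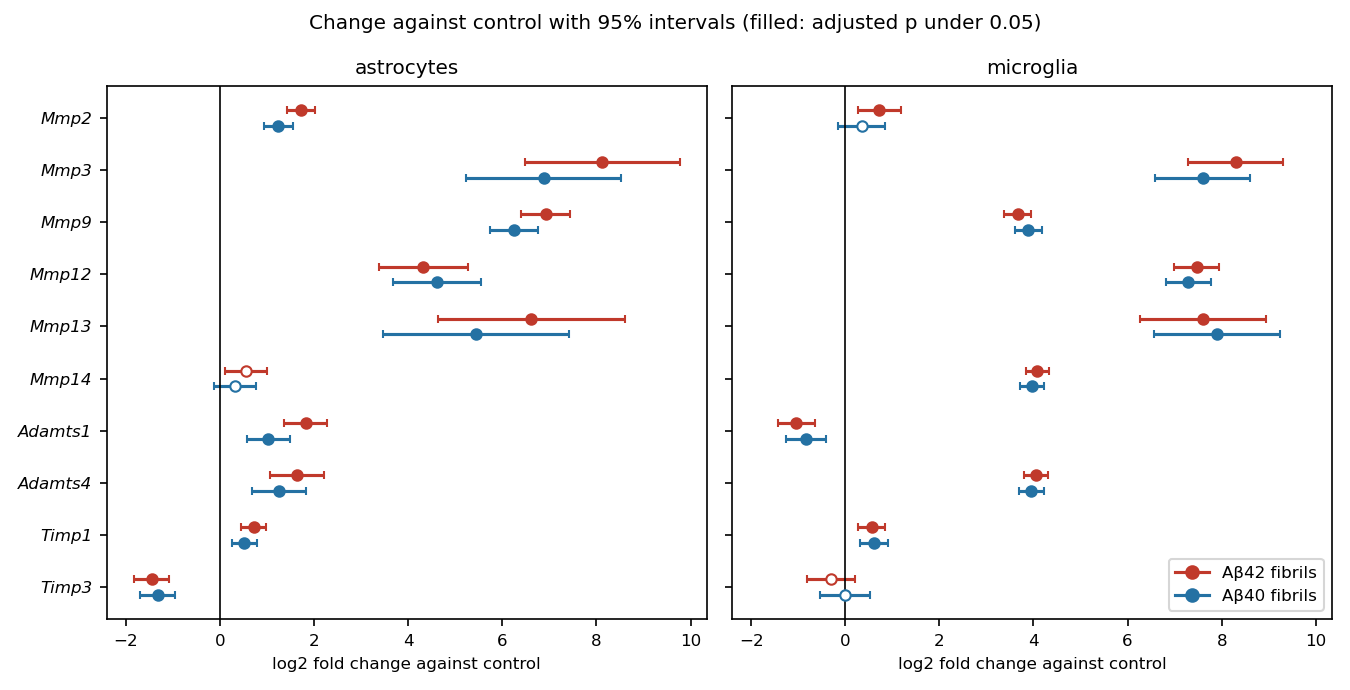
Log2 fold change against control of each member in astrocytes (left) and microglia (right) with Aβ42 fibrils (red) and Aβ40 fibrils (blue); bars are 95% intervals of the edgeR fit of 9 libraries and filled points have an adjusted p-value below 0.05. Mmp3, Mmp9, Mmp12 and Mmp13 lie above 3 in both panels, Mmp14 and Adamts4 lie near 4 in microglia alone, and Adamts1 is on opposite sides of 0 in the panels.

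The fibrils were then compared with each other. In astrocytes Mmp3 was the only member called, 2.38-fold higher with Aβ42 than with Aβ40 fibrils (log2 difference 1.25, SE 0.15, edgeR adjusted p = 0.0208), where 10 of 11690 genes, or 0.0855%, were called. The call was lost whichever treated library was left out, with log2 differences of 1.18 to 1.33 and adjusted p-values of 0.0586 to 0.240. Mmp13 had a log2 difference of 1.18 (95% interval 0.71 to 1.65, adjusted p = 0.0805) and Mmp9 of 0.67 (0.39 to 0.94, adjusted p = 0.0857). For Adamts1 it was 0.80 (0.37 to 1.23, adjusted p = 0.212) and for Mmp2 0.48 (0.19 to 0.77, adjusted p = 0.305). These 4 were not called, although every Aβ42 library lay above every Aβ40 library, as it did for 7 members in all and for 9.13% of all genes. DESeq2 called these 4 together with Mmp3 (5 members), and so did a fit of the treated libraries alone. The differences of Mmp12, Mmp14, Adamts4, Timp1 and Timp3 lay between -0.29 and 0.38 and were not called in any fit.

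In microglia, too, Mmp3 was the member that differed between the fibrils, 1.62-fold higher with Aβ42 fibrils (log2 difference 0.70, SE 0.16, edgeR adjusted p = 0.0214), and 20.3% of all genes were called in this comparison. It was also the 1 member for which every Aβ42 library lay above every Aβ40 library, against 14.8% of all genes. The difference of Mmp3 passed without Aβ42 replicate 1 (log2 0.70, adjusted p = 4.93e-04) but not when any of the other treated libraries was left out, where it was 0.51 to 0.84 with adjusted p-values of 0.0566 to 0.105. The other 9 members had log2 differences between -0.30 and 0.38. The interval of Mmp9 was -0.51 to 0.06, that of Mmp12 -0.18 to 0.53, that of Mmp14 -0.12 to 0.35 and that of Adamts4 -0.15 to 0.36, so a difference of 1.5-fold or more lies outside each of these 4 intervals. Mmp13 had the widest interval, from -0.99 to 0.40. Without Aβ42 replicate 1, Mmp13 (log2 -0.72, adjusted p = 0.00651) and Timp3 (-0.62, adjusted p = 4.99e-04) were also called, both lower with Aβ42 than with Aβ40 fibrils.

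**Figure D4:**
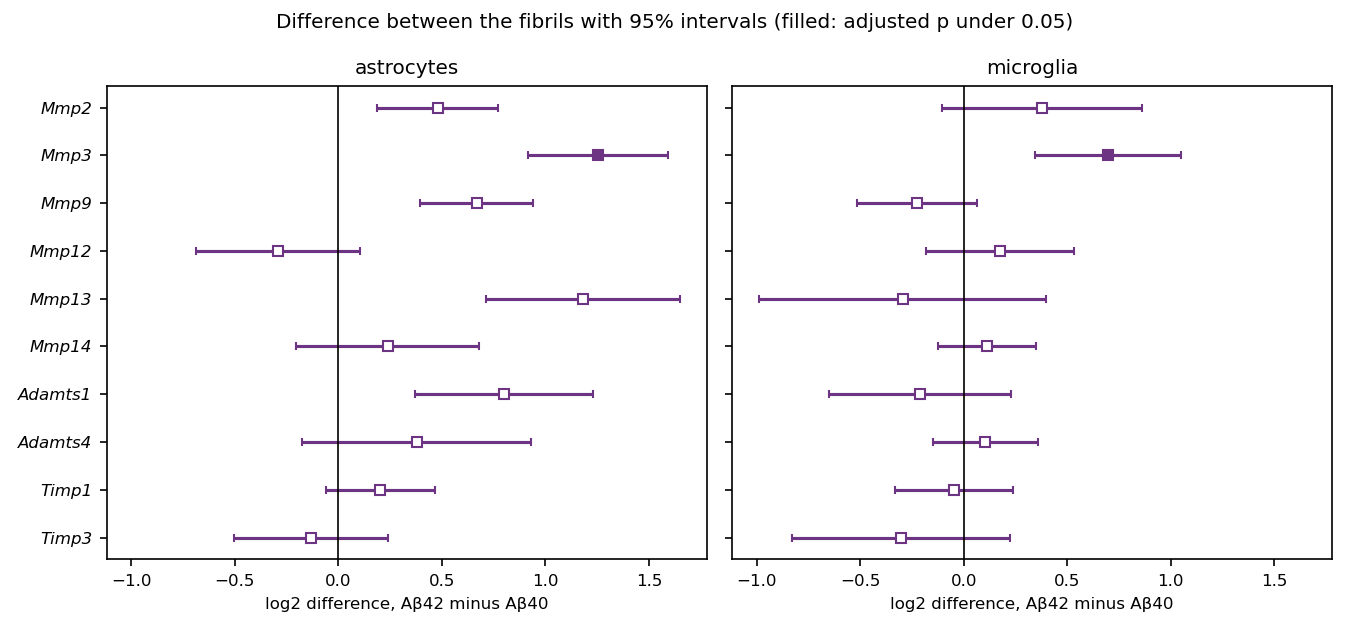
Log2 difference between Aβ42 and Aβ40 fibril-treated cells, positive where Aβ42 is higher, for each member in astrocytes (left) and microglia (right); bars are 95% intervals and filled squares have an adjusted p-value below 0.05. Mmp3 is filled in both panels, and in astrocytes Mmp2, Mmp9, Mmp13 and Adamts1 have intervals above 0 without passing the adjustment over all genes.

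The cell types were compared in a fit of all 18 libraries. All 10 members differed between control astrocytes and control microglia, as did 68.8% of all 11581 genes. Timp3 (log2 3.07, SE 0.21, edgeR adjusted p = 3.70e-10), Timp1 (2.06, SE 0.13, adjusted p = 5.59e-11), Mmp14 (1.98, SE 0.17, adjusted p = 6.89e-09) and Mmp2 (0.63, SE 0.19, adjusted p = 0.00811) were higher in astrocytes. Mmp9 was 488-fold higher in microglia (log2 -8.93, SE 0.27, adjusted p = 2.03e-16). Mmp12 (-4.17, SE 0.51, adjusted p = 9.43e-09), Adamts1 (-1.19, SE 0.21, adjusted p = 4.55e-05) and Adamts4 (-0.93, SE 0.21, adjusted p = 6.62e-04) were also higher in microglia. Mmp3 and Mmp13 had log2 differences of -2.78 and -4.13 from a handful of reads (adjusted p = 0.00347 and 0.00247), and both were lost without astrocyte control replicate 3 (adjusted p = 0.0639 and 0.0629). Mmp2 overlapped between the cell types and was lost without microglia control replicate 1 (adjusted p = 0.0704). Scaling by library totals moved the median of all genes by 0.278 toward astrocytes and the share of calls that were higher in astrocytes from 50.2% to 62.6%, and upper quartile scaling moved them by 0.177 and to 58.3%. The sign of no member changed with the scaling. Cell type cannot be told apart from the separate isolation of the cells.

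The response itself differed between the cell types for 7 of the 10 members with each fibril, where 37.3% (Aβ42) and 32.5% (Aβ40) of all genes differed. The log2 response of Mmp9 was larger in astrocytes by 3.26 with Aβ42 fibrils (SE 0.29, edgeR adjusted p = 1.57e-08) and by 2.38 with Aβ40 fibrils (SE 0.30, adjusted p = 1.39e-06), from a control level that was far lower. Adamts1 differed in the same direction by 2.87 and 1.88 (adjusted p = 2.98e-07 and 6.44e-05), with changes of opposite sign in the cell types. Mmp2 differed by 1.01 and 0.91 (adjusted p = 0.00572 and 0.0160), and the second of these was 0.59 (adjusted p = 0.0510) without microglia control replicate 2. The response was larger in microglia for Mmp14, with differences of -3.53 and -3.64 (adjusted p = 2.32e-09 and 2.02e-09), and for Adamts4, with -2.42 and -2.68 (adjusted p = 2.77e-06 and 9.34e-07). Mmp12 had differences of -3.15 and -2.67 (adjusted p = 0.00102 and 0.00352), which were not called without astrocyte control replicate 3 (adjusted p = 0.127 and 0.185). Timp3 had differences of -1.16 and -1.30 (adjusted p = 0.00493 and 0.00276), since it fell in astrocytes. The responses of Mmp3, Mmp13 and Timp1 were not shown to differ. The interval of the difference was -0.21 to 0.54 for Timp1 with Aβ42 fibrils, whereas for Mmp3 (-2.29 to 1.90) and Mmp13 (-4.54 to 2.53) it was wide. Upper quartile scaling moved the median of all genes in these comparisons by -0.174 and -0.168 and the share of calls larger in astrocytes from 48.2% to 35.0% and from 50.7% to 37.4%, without changing the sign of any of the 7 members.

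**Figure D5:**
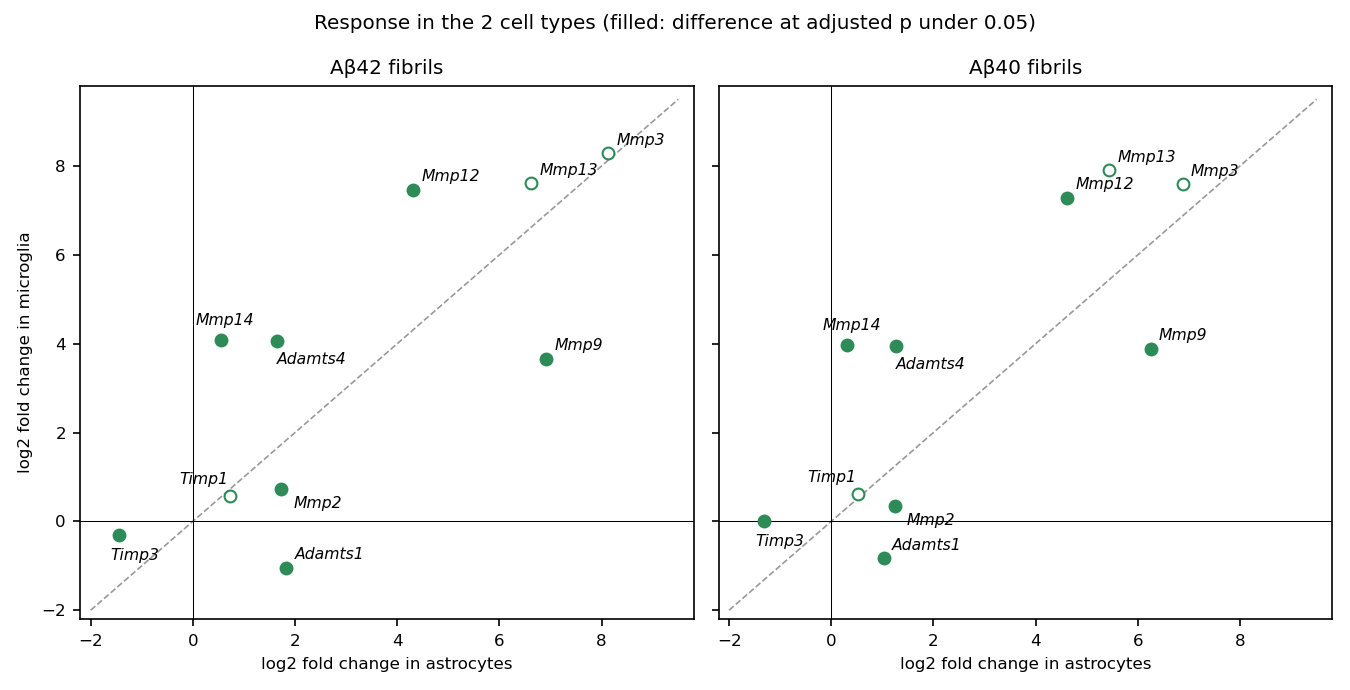
Log2 fold change against control in microglia (vertical) plotted against that in astrocytes (horizontal) for the 10 members, with Aβ42 fibrils (left) and Aβ40 fibrils (right); the dashed line marks equal change and filled points have a difference between the cell types at an adjusted p-value below 0.05. Mmp9 and Adamts1 lie to the right of the line, Mmp12, Mmp14 and Adamts4 lie above it, and Mmp3, Mmp13 and Timp1 are unfilled.

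On the common scale of 18 libraries, the order of the 6 groups differed between members. Mmp2 was lowest in control microglia (21.1 ± 7.95 CPM, SD, n = 3), rose over Aβ40 and Aβ42 microglia and control astrocytes, which overlapped, to 76.6 ± 4.99 in Aβ40 and 107 ± 4.62 in Aβ42 astrocytes. Mmp9 went in separate steps from control astrocytes (0.877 ± 0.189) over Aβ40 (69.3 ± 7.09) and Aβ42 astrocytes (110.4 ± 5.38) to control microglia (439 ± 59.6), with the treated microglia highest and overlapping (5611 ± 557 and 6491 ± 713). Treated astrocytes thus remained below control microglia in Mmp9. For Mmp12, control microglia (6.18 ± 1.36) and Aβ42 astrocytes (7.09 ± 1.53) overlapped. For Mmp3 no neighbouring groups overlapped, from control astrocytes (0.0965 ± 0.116) to Aβ42 microglia (215 ± 19.3). Mmp14 was lowest in control microglia (48.5 ± 5.40) and highest in Aβ42 microglia (830.4 ± 96.8), and the 3 astrocyte groups lay between them, with Aβ40 astrocytes overlapping both others and Aβ42 astrocytes separate from control astrocytes. Adamts1 was highest in Aβ42 astrocytes (61.2 ± 3.21), and control astrocytes (16.5 ± 5.31) overlapped with treated microglia. Every astrocyte group was above every microglia group for Timp1 and for Timp3, where the highest group was Aβ42 astrocytes (349 ± 13.5) for Timp1 and control astrocytes (316 ± 79.3) for Timp3.

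The wider families were read from lists that hold the remaining members by name. Of all genes tested in astrocytes, 16.5% rose and 20.4% fell with Aβ42 and 14.9% and 18.4% with Aβ40 fibrils. In microglia the shares were 27.1% and 26.6% with Aβ42 and 19.6% and 21.4% with Aβ40 fibrils. Many of the counts in this and the following paragraphs lie near these shares and the lists are small, so the counts are descriptive. Of 17 other matrix metalloproteinases, 15 were listed and 8 were tested in astrocytes, where 1 rose and 3 fell with each fibril. Mmp10 rose (log2 4.17 with Aβ42 and 2.66 with Aβ40, edgeR adjusted p = 2.78e-05 and 0.00220), while the membrane-type enzymes Mmp24 (-1.59 and -1.43), Mmp15 (-1.51 and -1.40) and Mmp16 (-1.47 and -1.32) fell with both. In microglia 6 were tested and 2 rose and 2 fell with each fibril. Mmp10 (7.25 and 6.64) and Mmp11 (1.64 and 1.44) rose, Mmp19 (-0.79 and -1.02) fell with both, Mmp16 fell with Aβ42 fibrils (-0.82) and Mmp15 with Aβ40 fibrils (-1.03). The control libraries held 3 reads or fewer of Mmp10, so its fitted values depend on the prior count. Mmp10 passed the filter on low counts only because of the treated libraries, so it could hardly have been tested without being higher.

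Of 17 other ADAMTS genes, 11 were listed and 9 were tested in astrocytes, where 3 rose and 2 fell with each fibril. Adamts7 rose in astrocytes (log2 2.04 with Aβ42 and 1.71 with Aβ40, edgeR adjusted p = 9.16e-06 and 3.61e-05) and in microglia (2.20 and 1.46, adjusted p = 1.93e-05 and 0.00173). In astrocytes Adamts15 rose with both fibrils (1.15 and 1.29) and Adamts3 with Aβ42 (1.09), while Adamts12 fell (-1.63 and -1.34). Adamts9 fell in astrocytes, from 58.4 to 97.2 CPM in control cells to 25.1 to 28.5 CPM with Aβ42 fibrils (-1.49) and 21.8 to 26.5 CPM with Aβ40 fibrils (-1.64), and rose in microglia, from 2.00 to 3.20 CPM to 9.40 to 10.4 and 7.81 to 10.5 CPM (1.90 and 1.89). Of the 5 tested in microglia, 2 rose with Aβ42 fibrils, and 3 rose and 1 fell with Aβ40 fibrils, among them Adamts3 (1.10) and Adamts10 (-0.66).

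Of the 3 other inhibitors, Timp4, Timp2 and Reck, 2 fell with Aβ42 and 1 with Aβ40 fibrils in astrocytes, and in microglia 1 rose and 2 fell with each fibril. Timp4 fell in astrocytes (log2 -2.203 with Aβ42 and -2.30 with Aβ40, edgeR adjusted p = 4.41e-06 and 3.23e-06) and in microglia (-0.95 and -1.92, adjusted p = 0.00284 and 4.10e-04). Timp2 fell in microglia (-1.10 and -1.45) and with Aβ42 fibrils in astrocytes (-0.59, adjusted p = 0.00749), and with Aβ40 fibrils in astrocytes it had a log2 difference of -0.33 (adjusted p = 0.102). Reck, a membrane-bound inhibitor, rose in microglia (0.58 and 0.51) and was not called in astrocytes. Of the 4 Timp genes, only Timp1 was higher with the fibrils by the test in either cell type.

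Plasmin, which activates several metalloproteinase proenzymes, is made from plasminogen by the activators Plau and Plat. These activators are held back by inhibitors such as Serpinb2. Of 9 genes of this system tested in astrocytes, 3 rose and 1 fell with Aβ42 fibrils and 2 rose and 1 fell with Aβ40 fibrils. Serpinb2 rose in astrocytes (log2 3.90 and 2.57, edgeR adjusted p = 8.13e-06 and 4.66e-04, from at most 4 reads in a control library), and Plaur, the receptor of Plau, rose with Aβ42 fibrils (1.11). Plau fell in astrocytes (-1.93 and -1.86, adjusted p = 8.17e-06 and 1.05e-05) and in microglia, from 923 to 1054 CPM in control cells to 64.9 to 91.9 CPM with Aβ42 and 40.0 to 51.5 CPM with Aβ40 fibrils (-3.70 and -4.44). In microglia 8 of 9 genes rose and 1 fell with Aβ42 fibrils, and 6 rose and 1 fell with Aβ40 fibrils. Serpinb2, which had at most 1 read in a control library, rose most by the fit (8.11 and 7.88), followed by Plat (2.83 and 2.88) and Plaur (2.51 and 1.98). In both cell types Serpinb2 passed the filter on low counts only because of the treated libraries, so its calls are descriptive.

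Substrates of these enzymes were the last list. Of 10 matrix genes tested in astrocytes, 1 rose and 5 fell with Aβ42 fibrils, and 1 rose and 7 fell with Aβ40 fibrils. Of all genes there, 16.5% rose and 20.4% fell with Aβ42 and 14.9% and 18.4% with Aβ40 fibrils. Tenascin C (Tnc) rose (log2 0.87 and 0.67, edgeR adjusted p = 4.63e-04 and 0.00279). The proteoglycan brevican (Bcan) fell (-1.25 and -1.06), as did osteopontin (Spp1, -0.81 and -1.20), and neurocan (Ncan) fell with Aβ40 fibrils (-1.30) and had a log2 difference of -0.83 with Aβ42 fibrils (adjusted p = 0.120). In microglia, 1 of 9 rose and 2 fell with Aβ42 fibrils and 3 rose and 2 fell with Aβ40 fibrils. The shares over all genes there were 27.1% and 26.6% with Aβ42 and 19.6% and 21.4% with Aβ40 fibrils. Cspg4 rose (2.24 and 1.47), aggrecan (Acan, -1.68 and -1.42) and Spp1 (-0.73 and -1.25) fell, and Vcan (0.84) and Tnc (0.43) rose with Aβ40 fibrils. Cspg4 and Bcan are also genes of the oligodendrocyte lineage, whose 7 markers rose in 4 cases with Aβ42 fibrils and 3 with Aβ40 fibrils in microglia and fell in 3 with each fibril in astrocytes, and their part in these changes was not tested.

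Finally, the genes whose level followed each member most closely were listed, by Pearson's r of log2(scaled CPM + 1) over the 9 libraries of the cell type in which the member's mean was higher. These 9 libraries are 3 groups, so any gene with the same difference between control and treated cells has a high r, and the values are descriptive. In microglia, Mmp9 was most like the cytokine Tnf, Lcn2 and the cytokine Il1b (r = 0.999, 0.999 and 0.998), and Mmp12 most like the chemokine Cxcl2, Slc7a11 and PVR (0.9997, 0.999 and 0.999). Mmp14 was most like Cfb, Csf3 and Ccl20, and Adamts4 like Zc3h12a, Cfb and Socs3, all at r = 0.998 to 0.999. Mmp3 was most like Il17f, Lrrc32 and Mb21d2 (r = 0.998 to 0.999) and Mmp13 like Slamf8, Ahnak and Ptgs2 (0.997 to 0.998). In astrocytes the nearest genes were Fam43a, Ass1 and Npb for Mmp2 (r = 0.993 to 0.994), Sco1, Tnc and Cxadr for Adamts1 (0.9755 to 0.980), Tmem252, Jagn1 and Mrps18b for Timp1 (0.983 to 0.989) and Cep55, Sema6d and Fbxl7 for Timp3 (0.994).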

How the data were processed

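RNA of 18 libraries (TruSeq Stranded mRNA kit) was sequenced by a service company. The authors deposited 1 table of raw read counts per gene for each library. The submitters' processing notes name STAR, Salmon, DESeq2 and the build rn5. Their versions, the annotation and the strand setting are not given in the sources used here. Reads on no gene or on several genes (26.0% to 34.2% in astrocytes, 21.7% to 24.5% in microglia) were left out.

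The deposited counts were tested with edgeR 4.0.16 (TMM, filterByExpr, glmQLFit, glmQLFTest) in R 4.3.3, within each cell type over 9 libraries, or over all 18 for cell type and its interaction with treatment, with Benjamini-Hochberg adjustment over all genes tested and a threshold of 0.05. Intervals use the SE and degrees of freedom of the fit. The procedure was tested on simulated data. DESeq2 1.42.0, other scalings and filters, the replicate number as a block, the compared groups alone and leaving out each library were the alternatives. Same-numbered libraries did not deviate together (r -0.64 to 0.44), so the numbers were not used as pairs. Depth covers counting error only.

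The members and lists were chosen with earlier results of these data known. All 10 members are named. From the other lists, the text names in each cell type up to 3 genes in each direction with the largest change among those called with either fibril, and gives the rest by counts. For likeness, the 3 genes with the highest r are named. Upstream sequences are from RefSeq (GRCr8) and its gene order and gene spans are used without coordinates from the authors' build. The symbols Mmp1b, Mmp25, Adamts6, Adamts8, Adamts13, Adamts16, Adamts17, Adamts20 and Nid1 were not matched in the tables. Some genes of these lists are not reported here by name.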

Additional observations from a re-analysis of the deposited data

Results flagged for a closer look

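The response to the fibrils differed between astrocytes and microglia in 14 tests of a member, each an edgeR test of the difference between both log2 fold changes, fitted over 18 libraries and adjusted over 11581 genes. The values are log2 fold change in astrocytes minus that in microglia. They were positive for Mmp9 (3.26 with Aβ42 and 2.38 with Aβ40 fibrils), Adamts1 (2.87 and 1.88) and Mmp2 (1.01 and 0.91). They were negative for Mmp14 (-3.53 and -3.64), Mmp12 (-3.15 and -2.67), Adamts4 (-2.42 and -2.68) and Timp3 (-1.16 and -1.30). The Aβ40 value of Mmp2 was 0.59 (adjusted p = 0.0510) without microglia control replicate 2, which ended the call. Mmp9 and Mmp12 rose in astrocytes from control libraries with at most 14 reads, so their difference depends on few counts, and both values of Mmp12 lost the call without astrocyte control replicate 3 (adjusted p = 0.127 and 0.185). Both fibril values of a gene use the same control libraries. Without microglia Aβ42 replicate 1 the value of Timp3 with Aβ42 fibrils was -0.85 (adjusted p = 0.00601), and the 7 members called with Aβ42 fibrils were again 7. No group has more than 3 libraries, so single libraries were not tested for standing apart.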

How the results depend on the processing

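The number of members called against control was within 1.5 times the value given under every alternative, except under a filter of 10 counts in every library, which leaves out the genes with few control reads. It then was 5 with each fibril in astrocytes, 6 between control cell types and 0 between the fibrils in each cell type, where Mmp3 was no longer tested. Between the fibrils, the number in astrocytes (1 as given) was 5 with DESeq2 and with the compared groups alone, 0 with the replicate block and 0 to 0 when a library was left out. In microglia (1 as given) it was 0 with the compared groups alone and 0 to 3 when a library was left out, with 3 without Aβ42 replicate 1. Under the block, Mmp3 between the fibrils in astrocytes was no longer called (log2 difference 1.25, adjusted p = 0.215), and the block changed no other call. Same-numbered libraries correlated above 0.1 in 2 of 9 pairs in astrocytes and 1 of 9 in microglia, and were the best match in 1 and 3 of 9.

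Signs turned only for values near 0. Timp3 in microglia with Aβ40 fibrils was 0.011 with DESeq2 size factors, 0.039 with upper quartile scaling, 0.00381 with DESeq2, 2.75e-04 with 10 counts in every library, 0.015 with the compared groups alone and -0.10 to 0.068 when a library was left out. Timp1 gave -0.012 for the Aβ42 interaction with upper quartile scaling, -0.17 to 0.031 for the Aβ40 interaction and -0.10 to 0.045 between the fibrils in microglia when a library was left out. Mmp12 between the fibrils in microglia was -0.029 to 0.33, and Mmp3 in the Aβ42 interaction -0.65 to 0.40. The causes were not tested. Among single members, 626 values from leaving out a library kept their sign and call, 19 lost a call, 5 gained one and 10 changed sign. With the other alternatives these numbers were 641, 2, 11 and 6. Depth limits Mmp3, Mmp12 and Mmp13 in control cells, and Mmp9 in control astrocytes, to a few reads.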
